A study of Mus musculus with 45 samples.

Results

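The genes examined here write, guard and erase DNA methylation in the mouse egg and the early embryo. They were the rows of 10 gene symbols (Dnmt1, Dnmt3a, Dnmt3b, Dnmt3l, Uhrf1, Dppa3, Tet1, Tet2, Tet3 and Tdg) among the 26214 genes of a table of expression values, and all 10 were found. The table held RNA-seq of fully grown oocytes (FGOs) and of late two-cell embryos, from a study that asked how methylation of lysine 36 of histone H3 guides DNA methylation in oocytes. Control FGOs came from H3f3b K36M-flox/+ females aged 3 to 4 weeks, which carry the floxed allele but no Cre, and K36M FGOs came from H3f3b K36M-flox/+; Gdf9-Cre females of the same age, in which the oocyte-specific Gdf9 promoter drives Cre and the oocytes express the mutant histone H3.3K36M. The females had a hybrid C57BL/6 / 129 background, and each FGO library was a pool of oocytes, with 3 control and 3 K36M libraries. Two-cell embryos were made by in vitro fertilization of superovulated oocytes with JF-1 sperm (strain label hybrid C57BL/6 / 129 X JF-1), and were collected 31 to 32 h after fertilization, 1 embryo per library. There were 8 control and 8 K36M oocyte-derived embryos. Because the mothers are heterozygous, the K36M oocyte-derived embryos are a mixture of H3f3b +/+ and H3f3b K36M/+ genotypes. Control two-cell replicate 4 was left out because of a technical problem. In all, 21 of 22 libraries were compared.

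In mammals, DNMT1 copies methyl groups to the new strand after replication, guided to half-methylated CG sites by UHRF1, whereas DNMT3A and DNMT3B place them on unmethylated DNA. In growing oocytes DNMT3A works together with DNMT3L, a cofactor without catalytic activity. DPPA3 (STELLA) is a maternal protein that keeps UHRF1 out of the nucleus in oocytes and shields the maternal genome from oxidation after fertilization, the TET enzymes oxidize 5-methylcytosine, and TDG excises oxidized bases.

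Expression was given as TPM, a gene's share of the library per unit of gene length, so levels can be compared between genes. Every library summed to 1000000, and the number of reads behind a value is unknown. Because TPM is a share, a change in the RNA of one gene and a change in all the other RNA of the same cells cannot be told apart. The cells had the markers of their labels. Of 9 oocyte genes such as Zp3 and Gdf9, none was absent from FGOs, with a summed TPM of 16128 to 16317 in control and 13723 to 15061 in K36M FGOs. Of 7 genes of the zygotic two-cell program, such as Zscan4d, the summed TPM was 34.5 to 73.9 in FGOs, 367 to 1780.2 in control and 215 to 2193 in K36M oocyte-derived embryos. Markers of granulosa and cumulus cells (11 genes, among them Foxl2 and Cyp19a1) summed to 46.8 to 64.7 in FGOs and 17.9 to 151 in embryos, those of blood (6 genes, with Hba-a1 and Hba-a2 at 0 in every FGO library) to at most 8.32 in FGOs and 59.5 in embryos, those of stroma (5 genes) to at most 8.86 and 56.7, and those of sperm (4 genes) to at most 31.2 and 55.2. H3f3b, which carries the mutation, had a TPM of 265 to 308 in control and 377 to 418 in K36M FGOs, but its row does not separate the mutant from the wild-type transcript.

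For a pair of members the sequence of the gene itself limits what a row of the table can say. Tdg lies on chromosome 10 of GRCm38 (mm10) from 82629814 to 82650799 on the plus strand. The stretches of 53 bases (the read length of the study) in its exons were taken without masking of repeats. Of these, 77.2% also occurred elsewhere on the assembled chromosomes, and 57.7% occurred in Tdg-ps2, an annotated pseudogene at chr10:42052558-42055453. A coding exon of 242 bases was identical in both, and 120 bases of it are shown here (RefSeq GRCm38.p6, the strand of each transcript) because a read inside this stretch fits both copies, and only its mate (the reads were paired) could place it. The places where they would differ would be in capitals, and there were 0 such places.
Tdg, chr10:82641316-82641435, plus strand: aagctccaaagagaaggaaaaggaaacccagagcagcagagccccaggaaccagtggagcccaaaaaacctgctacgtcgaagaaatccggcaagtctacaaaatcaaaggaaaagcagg
Tdg-ps2, chr10:42055060-42055179, minus strand: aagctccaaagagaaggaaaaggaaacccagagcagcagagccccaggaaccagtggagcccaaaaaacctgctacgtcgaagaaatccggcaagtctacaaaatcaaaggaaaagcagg

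Tdg-ps2 was not a row of the table. The shares of repeated stretches were 25.7% for Uhrf1, 25.7% for Dppa3, 6.77% for Dnmt3b and 1.84% for Dnmt3a, and they were under 1% for the 3 Tet genes and 0 for Dnmt1 and Dnmt3l, so the levels of Tdg, and to a lesser degree of Uhrf1 and Dppa3, are uncertain. These shares count single reads and leave out what a mate could resolve. Dnmt1 has a different limit. It is known for an oocyte start that lies apart from its somatic start, and RefSeq places 3 transcript starts on chromosome 9 (minus strand), at 20959888, 20952979 and 20952623. The table has 1 value for all of them, so the starts cannot be told apart here. The 250 bases upstream of the first and the second are shown with each CG dinucleotide, the target of these enzymes, in capitals. The letters CG read the same on both strands.
Dnmt1, upstream of 20959888, chr9:20959889-20960138: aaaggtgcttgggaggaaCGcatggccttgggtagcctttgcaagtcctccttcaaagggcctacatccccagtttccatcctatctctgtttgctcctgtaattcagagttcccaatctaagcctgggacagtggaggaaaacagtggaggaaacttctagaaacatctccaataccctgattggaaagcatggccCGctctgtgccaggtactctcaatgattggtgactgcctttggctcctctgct
Dnmt1, upstream of 20952979, chr9:20952980-20953229: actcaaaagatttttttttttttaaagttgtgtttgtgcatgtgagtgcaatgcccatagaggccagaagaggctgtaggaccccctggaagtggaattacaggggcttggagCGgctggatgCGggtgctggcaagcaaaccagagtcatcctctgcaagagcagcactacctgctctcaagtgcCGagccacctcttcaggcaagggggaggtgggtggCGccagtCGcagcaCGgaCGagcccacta

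The first window held 2 CG and the second 7. Over the same 250 bases upstream of 32851 RefSeq starts the median was 6 CG, 18.8% of windows held fewer than 2, and 53.7% held fewer than 7. The third Dnmt1 window, upstream of 20952623, held 26 CG, more than in 90.4% of windows. Of the other members, Tet2 (51 CG), 2 of the 3 Dnmt3a windows (38 and 40 CG) and 1 of the 2 Uhrf1 windows (30 CG) were denser than this, and the 3 windows of Dnmt3l held 3 to 5 CG.

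The 10 genes differed widely in level in control FGOs. Dppa3 had the highest level, at a mean TPM of 2904 ± 149 (SD, n = 3), the 14th of 26214 genes, followed by Dnmt1 at 2498 ± 118 (the 17th), Uhrf1 at 967 ± 48.0 and Tet3 at 913 ± 44.0. Dnmt3l (108 ± 4.31) and Dnmt3a (87.8 ± 4.74) formed a middle level, and Dnmt3b (16.3 ± 3.33), Tet2 (6.16 ± 2.36), Tet1 (1.14 ± 0.18) and Tdg (0.41 ± 0.22, the 15778th) were low. Along this order only Uhrf1 and Tet3 overlapped as neighbours, with Uhrf1 higher in 2 of 3 libraries. K36M FGOs had the same order, and again only Uhrf1 and Tet3 overlapped. The 10 genes together made up 0.750% ± 0.014 (SD, n = 3) of the TPM of a control FGO library and 0.683% ± 0.043 (SD, n = 3) of that of a K36M FGO library.

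**Figure D1:**
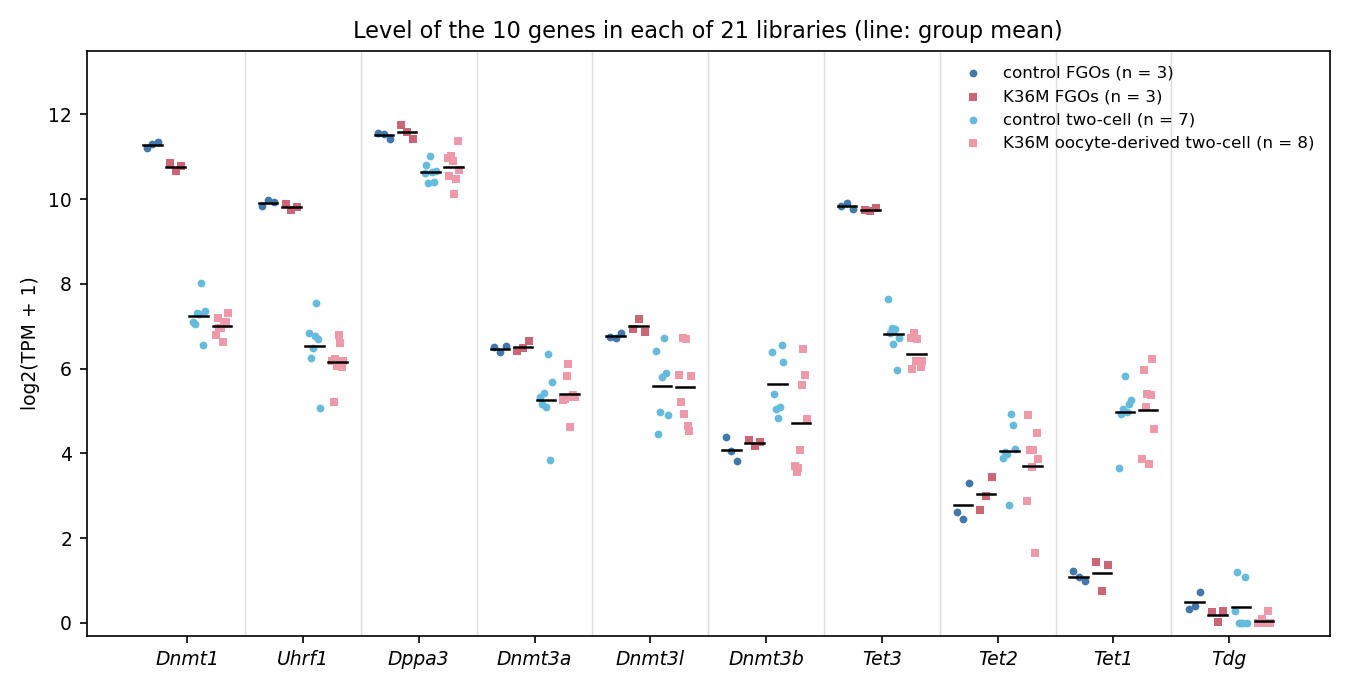
Level of the 10 genes on the log2(TPM + 1) scale (vertical axis) in each of 21 libraries, by group, with 1 point per library and a line at the group mean. In FGOs Dppa3, Dnmt1, Uhrf1 and Tet3 lay high, and in two-cell embryos Dppa3 alone stayed high while Tet1 lay above its FGO level.

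The first comparison asked whether the mutant histone changes the expression of these genes in oocytes. It was made with limma on log2(TPM + 1) over 13775 genes whose TPM averaged 1 or more in these libraries, with Benjamini-Hochberg adjustment at 0.05. None of the 9 members tested passed, and over all genes 0.00726% did. The study, with a test on read counts, reported more genes between K36M and control FGOs at the same threshold. Whether members are among those was not examined here. Tdg was under the minimum TPM. At an unadjusted p under 0.05 there was 1 member, Dnmt1, and over all genes the share was 10.5%.

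Among the maintenance genes, Dnmt1 (chromosome 9, 20907206 to 20959888) had a TPM of 2374, 2512 and 2608 in control and of 1843, 1620.1 and 1757 in K36M FGOs. Every K36M library lay below every control library. The mean ratio was 0.697 and the log2 fold change was -0.52 (SE 0.07, 95% interval -0.68 to -0.37, adjusted p = 0.0944 with limma). A two-sided exact permutation test gave p = 0.1, the smallest that 3 against 3 libraries allow. Over the 14 alternative fits the log2 fold change ran from -0.56 to -0.43 and the adjusted p from 0.0205 to 0.546 with limma. Only the fit without K36M replicate 1 passed the threshold, with a log2 fold change of -0.56 and an adjusted p of 0.0205. In that fit 300 genes passed against 1 with all libraries, so whether Dnmt1 is called depends on that library. The summed TPM of the oocyte markers given above was also lower in every K36M than in every control FGO library. Its part in the Dnmt1 difference was not tested.

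Uhrf1 (chromosome 17, 56303337 to 56323486), the partner of Dnmt1, had a TPM of 914, 1006 and 982 in control and of 948, 855 and 899 in K36M FGOs. These groups overlapped (log2 fold change -0.10, SE 0.07, adjusted p = 0.621 with limma). The ratio of Dnmt1 to Uhrf1 inside a library does not change when all values of the library are multiplied by 1 factor. It was 2.60, 2.50 and 2.66 in control and 1.94, 1.89 and 1.95 in K36M FGOs, so the groups did not overlap, and the means were 2.58 ± 0.08 and 1.93 ± 0.03 (SD, n = 3 each). This ratio was not tested. Dppa3 (chromosome 6, 122626424 to 122630271), the guard against UHRF1, had a TPM of 3000.2, 2978 and 2733 in control and of 3445, 3081 and 2729 in K36M FGOs, which overlapped (log2 fold change 0.08, SE 0.09, adjusted p = 0.753 with limma).

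Of the de novo genes, Dnmt3a and its cofactor are those on which methylation of the oocyte depends. Dnmt3a (chromosome 12, 3801559 to 3914443) had a TPM of 90.1, 82.4 and 91.0 in control and of 84.6, 89.4 and 98.9 in K36M FGOs. The log2 fold change was 0.05 (95% interval -0.19 to 0.28, adjusted p = 0.891 with limma), and it was -0.01 with quantile normalization, so no direction is given. Its cofactor Dnmt3l (chromosome 10, 78042287 to 78063622) had a TPM of 107, 105 and 113 in control and of 122, 144 and 116 in K36M FGOs. All 3 K36M libraries lay above the controls, by a log2 fold change of 0.23 (95% interval -0.01 to 0.47, adjusted p = 0.487 with limma, exact permutation p = 0.1). The ratio of Dnmt3l to Dnmt3a overlapped between the groups, with means of 1.23 ± 0.04 (control) and 1.41 ± 0.22 (K36M; SD, n = 3 each). Dnmt3b (chromosome 2, 153649411 to 153687730), the de novo enzyme of the early embryo, had a TPM of 19.8, 15.7 and 13.2 in control and of 18.9, 17.1 and 18.3 in K36M FGOs. These groups overlapped (log2 fold change 0.16, SE 0.19, adjusted p = 0.784 with limma). Dnmt3a made up 84.4% ± 2.70 of the summed TPM of Dnmt3a and Dnmt3b in control FGOs (SD, n = 3) and 83.4% ± 1.40 in K36M FGOs (SD, n = 3).

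Among the erasers, Tet3 (chromosome 6, 83362373 to 83457208), the TET enzyme of the egg, had a TPM of 917, 955 and 867 in control and of 853, 839 and 881 in K36M FGOs. The groups overlapped, and the log2 fold change was -0.09 (95% interval -0.24 to 0.06, adjusted p = 0.647 with limma). Tet3 made up 98.9% to 99.4% of the summed TPM of the 3 Tet genes in control and 98.7% to 99.2% in K36M FGOs. Tet2 (chromosome 3, 133463677 to 133545136) had a TPM of 4.51 to 8.87 in control and 5.39 to 9.86 in K36M FGOs, and Tet1 (chromosome 10, 62804570 to 62887469) had 0.97 to 1.34 and 0.67 to 1.72. Neither separated the groups (adjusted p = 0.805 for Tet2 and 0.949 for Tet1 with limma), and their 95% intervals, -0.48 to 0.97 and -0.75 to 0.93, were wide. Tdg had a TPM of 0.25, 0.32 and 0.67 in control and of 0.19, 0.02 and 0.21 in K36M FGOs. The groups did not overlap (exact permutation p = 0.1), at levels where, with the shared sequence shown above, the source of the reads is uncertain. Of the 9 members tested with limma, 2 had groups that did not overlap (Dnmt1 lower and Dnmt3l higher), and over all genes tested 15.6% did not overlap (8.17% lower and 7.46% higher). Tdg, also lower without overlap, is not among the genes behind that share.

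**Figure D2:**
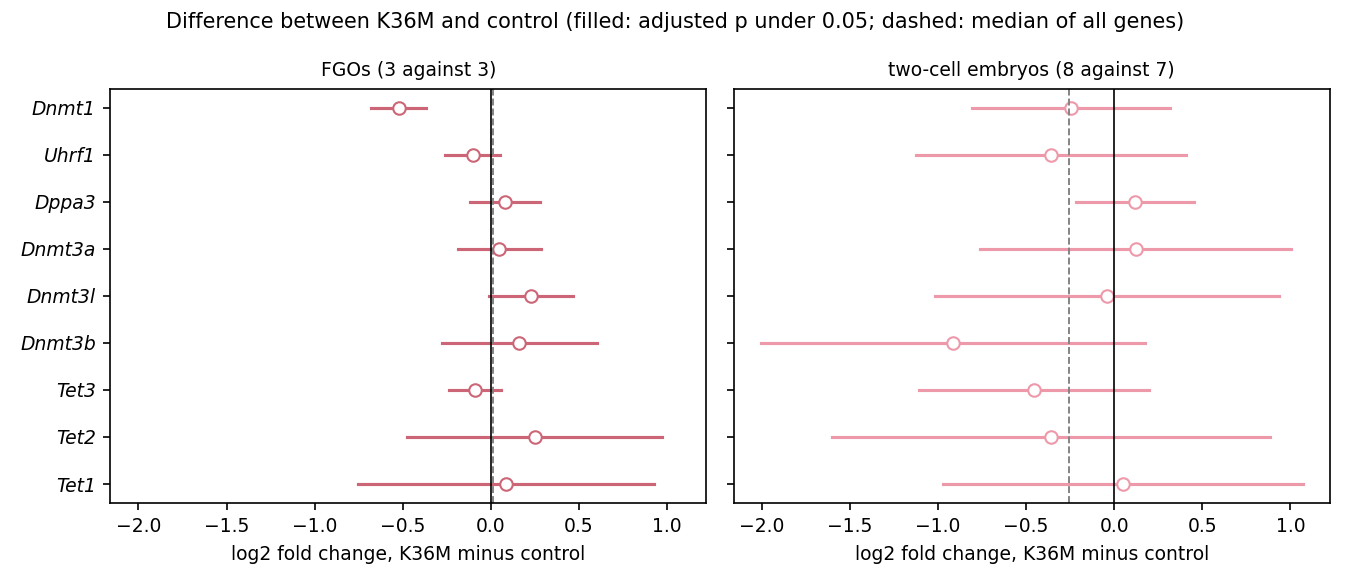
Log2 fold change between K36M and control (horizontal axis, K36M minus control) of the 9 genes tested, in FGOs and in two-cell embryos, with 95% intervals from limma. Open circles did not pass an adjusted p of 0.05, and the dashed line is the median of all genes tested. Dnmt1 in FGOs, at -0.52, was the 1 gene whose interval did not reach 0.

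The same comparison in two-cell embryos asked whether the oocytes' mutant histone changes these transcripts after fertilization. Here too none of the 9 members tested passed, and over all 17362 genes tested 0% did. An unadjusted p under 0.05 was found for no member and for 7.71% of all genes. All genes had a median fold change of -0.26 on the log2 scale, which became -0.04 after quantile normalization, so the fold changes of the members tested are also given relative to this median. None of the 9 members tested, nor Tdg, had groups that did not overlap, and over all genes 0.115% had (0.023% higher and 0.0922% lower).

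Dnmt1 had a TPM of 93.2 to 259 (median 156) in 7 control and of 97.6 to 158 (median 127) in 8 K36M oocyte-derived embryos. The log2 fold change was -0.24 (95% interval -0.81 to 0.32, adjusted p = 0.793 with limma), or 0.01 relative to the median of all genes. Uhrf1 ran from 32.6 to 187 (median 103) in control and from 36.4 to 110.4 (median 71.9) in K36M oocyte-derived embryos. Its log2 fold change was -0.36 (SE 0.37, adjusted p = 0.783 with limma), and -0.10 relative to the median. The Dnmt1 to Uhrf1 ratio, which separated the FGO groups, did not do so in embryos, with values of 0.91 to 4.99 in control and 0.88 to 4.01 in K36M oocyte-derived embryos.

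Dppa3 ran from 1321 to 2083 (median 1602) in control and from 1116 to 2659 (median 1768) in K36M oocyte-derived embryos (log2 fold change 0.12, SE 0.16, adjusted p = 0.846 with limma). This was 0.37 above the median of all genes, and with quantile normalization the log2 fold change was -0.06, so it has no stable sign.

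Dnmt3b differed widely between single embryos. Its TPM was 82.4, 41.2, 31.9, 27.3, 33.1, 92.6 and 70.7 in control replicates 1, 2, 3, 5, 6, 7 and 8, with a median of 41.2. In K36M oocyte-derived replicates 1 to 8 it was 11.9, 10.9, 11.7, 16.0, 48.2, 87.0, 56.4 and 27.2, with a median of 21.6. Replicates 1 to 4 of the K36M oocyte-derived embryos lay below every control embryo, replicate 8 lay just under the lowest control embryo, and the other 3 lay within the control range. The log2 fold change was -0.92 (SE 0.53, 95% interval -2.01 to 0.17, adjusted p = 0.680 with limma, exact permutation p = 0.0892), or -0.66 relative to the median. With control replicate 4, whose Dnmt3b TPM was 0.70, it was -0.31. The share of Dnmt3a in Dnmt3a and Dnmt3b was 12.5% to 71.0% in control and 31.2% to 82.6% in K36M oocyte-derived embryos. Whether the embryos low in Dnmt3b had one of the 2 genotypes was not tested, because the labels do not give the genotype of an embryo.

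Dnmt3a had a TPM of 13.3 to 81.0 (median 39.4) in control and of 23.8 to 68.1 (median 39.3) in K36M oocyte-derived embryos (log2 fold change 0.12, 95% interval -0.76 to 1.01, adjusted p = 0.947 with limma, and 0.38 relative to the median). Dnmt3l had 20.8 to 104.3 (median 54.9) and 22.2 to 105 (median 46.1), with a log2 fold change of -0.04 (95% interval -1.02 to 0.94, adjusted p = 0.984 with limma) that was 0.22 relative to the median and 0.09 with quantile normalization, so it has no stable sign. Both intervals include 0 and changes in either direction.

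Tet3 had a TPM of 61.9 to 199.9 (median 114) in control and of 63.1 to 114 (median 71.2) in K36M oocyte-derived embryos. The log2 fold change was -0.46 (SE 0.32, adjusted p = 0.724 with limma, exact permutation p = 0.0578), or -0.20 relative to the median. Tet1 (11.7 to 55.9 against 12.4 to 74.0) and Tet2 (5.92 to 29.5 against 2.13 to 29.0) overlapped over most of their ranges, with log2 fold changes of 0.05 (SE 0.49) and -0.36 (SE 0.60) and adjusted p of 0.982 and 0.878 with limma. Relative to the median they were 0.30 and -0.10. With control replicate 4 the sign for Tet1 changed, to -0.08, and with quantile normalization that for Tet2 changed, to 0.04. Tdg was listed at 0 in 4 of 7 control and 6 of 8 K36M oocyte-derived embryos, and its highest TPM was 1.29.

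The test of the difference between these effects, the genotype by stage interaction over 21 libraries, passed for no member and for 0% of 17358 genes, and at an unadjusted p under 0.05 it passed for no member and for 1.15% of genes. For Dnmt1 the interaction was 0.28 (95% interval -0.41 to 0.96) and for Dnmt3b -1.08 (95% interval -2.86 to 0.70), both with an adjusted p of 1.00 with limma. The lower Dnmt1 value in K36M FGOs was therefore not shown to be limited to oocytes.

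The largest differences lay between the stages. The 2 stage comparisons, in control and in K36M material, share no library. Of the 9 members tested in control material 6 passed, 4 lower and 2 higher in two-cell embryos, and over all genes 30.5% did (15.5% lower and 15% higher). In K36M material 5 of 9 passed, 4 lower and 1 higher, and over all genes 25.3% did (15.4% lower and 9.86% higher). At an unadjusted p under 0.05 there were 9 of 9 members in control and 7 of 9 in K36M material, and 41.1% and 36.6% of all genes. The groups did not overlap for 8 of 9 members in control material (6 lower and 2 higher), where 32.7% of all genes did not (18.2% lower and 14.5% higher). In K36M material they did not for 7 of 9 members (6 lower and 1 higher) and for 26.3% of all genes (16.9% lower and 9.41% higher). Apart from fertilization, FGO and embryo libraries differed in the number of cells, in the amplification of their cDNA, in superovulation and in the sperm's genome, and these cannot be told apart. The 10 genes made up 0.219% ± 0.029 (SD, n = 7) of the TPM of control and 0.226% ± 0.048 (SD, n = 8) of that of K36M oocyte-derived embryos, against the 0.750% and 0.683% of FGOs.

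The maintenance genes and Tet3 fell. In control material, Dnmt1 fell from 2498 to 157 (mean TPM, a ratio of 0.063), with a log2 fold change of -4.04 (SE 0.26, adjusted p = 3.6e-07 with limma), and in K36M material from 1740.0 to 128 (log2 fold change -3.76, SE 0.21, adjusted p = 3.4e-08 with limma). Its rank by mean TPM went from the 17th to the 1610th gene in control and from the 33rd to the 1972nd in K36M material. Uhrf1 fell with log2 fold changes of -3.39 (SE 0.41) and -3.65 (SE 0.32), with adjusted p of 5.1e-05 and 2.7e-06 with limma. Tet3 fell with log2 fold changes of -3.02 (SE 0.30) and -3.39 (SE 0.28), with adjusted p of 1.1e-05 and 1.4e-06 with limma. For all 3 genes the highest embryo lay below the lowest FGO library in both genotypes, and every alternative kept the direction and the call.

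Dppa3 held its place among the most abundant transcripts. Its mean TPM was 2904 in control FGOs and 1618 ± 262 (SD, n = 7) in control embryos, a log2 fold change of -0.86 (SE 0.15, adjusted p = 0.000988 with limma). In K36M material it was 3085 and 1789 ± 477 (SD, n = 8), a log2 fold change of -0.82 (SE 0.20, adjusted p = 0.00902 with limma). By rank it was the 14th gene in control FGOs and the 15th in control embryos, and the 10th and the 14th in K36M material. With quantile normalization, which compares such ranks, the log2 fold changes were -0.12 and -0.32 and neither passed (adjusted p = 0.665 and 0.342 with limma). In K36M material the call was also lost without FGO replicate 1 or 2 (adjusted p = 0.0698 and 0.0510 with limma). Without the mean-variance trend of the fit it was lost in both (adjusted p = 0.0658 in control and 0.147 in K36M material with limma). Because Uhrf1 fell more, the ratio of Dppa3 to Uhrf1 inside a library was 3.01 ± 0.25 in control FGOs and 20.4 ± 13.7 in control embryos, with a lowest embryo of 8.57 and a highest FGO library of 3.28. In K36M material it was 3.03 to 3.64 in FGOs and 10.1 to 41.1 in embryos.

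Of the de novo genes, Dnmt3b passed in control material and Dnmt3a and its cofactor Dnmt3l passed in neither. Dnmt3a had a log2 fold change of -1.20 in control (SE 0.46, adjusted p = 0.0657 with limma) and of -1.13 in K36M material (SE 0.40, adjusted p = 0.0534). Dnmt3l had -1.17 (SE 0.48, adjusted p = 0.0822 with limma) and -1.44 (SE 0.53, adjusted p = 0.0591). These 4 values missed the threshold, although all embryos lay below all FGO libraries. In control material the highest embryo lay close to the lowest FGO library (Dnmt3l 104.3 and 104.6, Dnmt3a 81.0 and 82.4). In K36M material these TPM values were 105 and 116 for Dnmt3l and 68.1 and 84.6 for Dnmt3a. None of the 4 fold changes passed with 1 FGO library left out (adjusted p of 0.146 to 0.216 with limma). Each passed with array weights, where 9396 genes passed in control and 8212 in K36M material against 5159 and 4217. Each also passed with median-of-ratios scaling, which moved the median over all genes tested from 0.08 to -0.11 in control and from -0.16 to -0.29 in K36M material. In K36M material both genes also passed with a minimum mean TPM of 5, where 3808 genes passed. With quantile normalization Dnmt3a or Dnmt3l passed in either material, but not both, and so it was with all genes above 0 in K36M material. Dnmt3b rose in control material, from a mean TPM of 16.3 to 54.2, with a log2 fold change of 1.55 (SE 0.47, adjusted p = 0.0253 with limma), and no embryo overlapped with an FGO library. This call was lost without control FGO replicate 1, 2 or 3 (adjusted p = 0.0638, 0.0907 and 0.112 with limma), and with control two-cell replicate 4 (log2 fold change 0.94, adjusted p = 0.518). In K36M material Dnmt3b had a log2 fold change of 0.47 (SE 0.70, adjusted p = 0.666 with limma). The share of Dnmt3a in the pair was 84.4% in control FGOs and 45.0% ± 18.9 in control embryos, and 83.4% in K36M FGOs and 60.2% ± 22.1 in K36M oocyte-derived embryos. The control groups did not overlap, whereas 1 K36M oocyte-derived embryo, at 82.6%, lay within the range of the K36M FGO libraries.

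Of the Tet genes not yet described, Tet1 passed in both materials and Tet2 in neither. Tet1 rose from a mean TPM of 1.14 to 33.2 ± 13.0 (SD, n = 7) in control and from 1.32 to 37.4 ± 22.0 (SD, n = 8) in K36M material, log2 fold changes of 3.89 (SE 0.55, adjusted p = 0.000196 with limma) and 3.85 (SE 0.68, adjusted p = 0.000905). All embryos lay above all FGO libraries. Tet2 had log2 fold changes of 1.27 (SE 0.58, adjusted p = 0.119 with limma) and 0.66 (SE 0.74, adjusted p = 0.567). In the summed TPM of the 3 genes, Tet1 went from 0.12% ± 0.02 in control FGOs to 21.1% ± 9.65 in control embryos, Tet2 from 0.68% ± 0.29 to 10.7% ± 5.68, and Tet3 from 99.2% ± 0.28 to 68.2% ± 11.6. In K36M material Tet1 went from 0.15% ± 0.06 to 27.1% ± 13.7, Tet2 from 0.85% ± 0.24 to 10.4% ± 5.21, and Tet3 from 99.0% ± 0.24 to 62.5% ± 15.9. Tet3 still had the highest mean of the 3 genes in both groups of embryos.

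**Figure D3:**
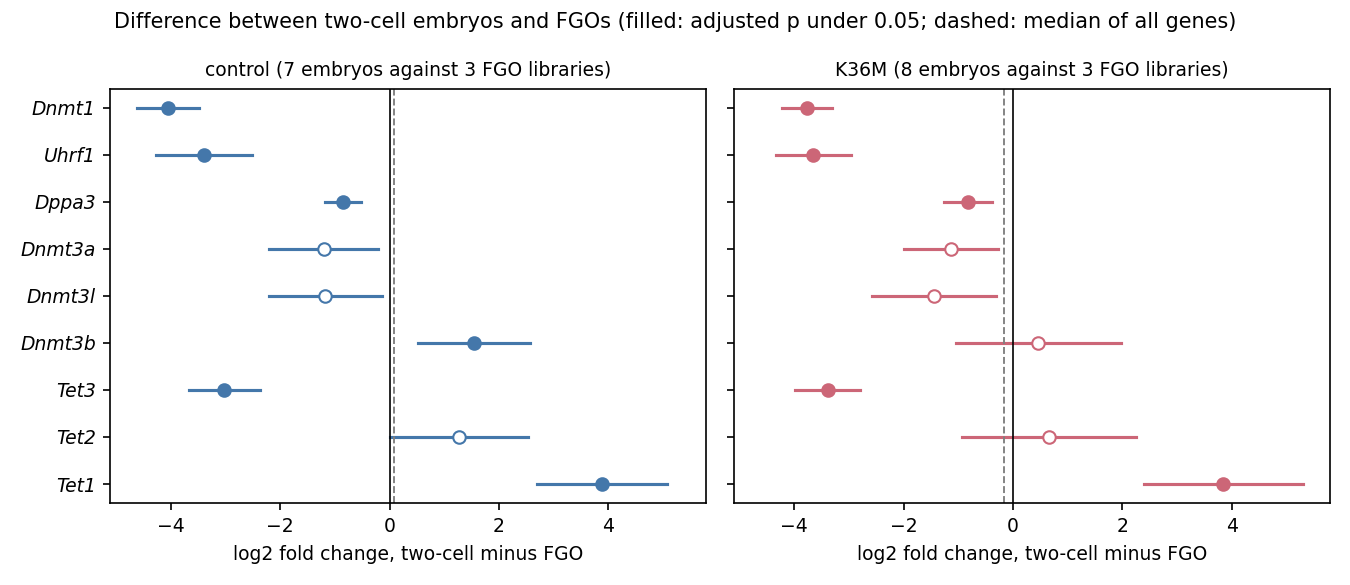
Log2 fold change between two-cell embryos and FGOs (horizontal axis, two-cell minus FGO) of the 9 genes tested, in control and in K36M material, with 95% intervals from limma. Filled circles passed an adjusted p of 0.05, and the dashed line is the median of all genes tested. Dnmt1, Uhrf1, Tet3 and Dppa3 lay to the left and Tet1 to the right in both panels.

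The TPM of the members also spread to different degrees between single embryos. This spread may be partly technical, and it was not compared with that of other genes of like level. Among control embryos the coefficient of variation of TPM was smallest for Dppa3 (16.2%), then Dnmt1 (32.5%), Tet3 (35.9%) and Tet1 (39.3%). It was 44.5% for Tet2, 46.2% for Uhrf1, 49.0% for Dnmt3a, 49.8% for Dnmt3b, 56.7% for Dnmt3l and 153% for Tdg. Among K36M oocyte-derived embryos it was 15.1% for Dnmt1, 25.0% for Tet3, 26.6% for Dppa3, 29.8% for Uhrf1 and 31.3% for Dnmt3a. It was 57.6% for Tet2, 58.7% for Tet1, 62.1% for Dnmt3l, 82.5% for Dnmt3b and 217% for Tdg. In pooled FGOs it was 2.50% to 6.46% for Dnmt1, Uhrf1 and Tet3 in both genotypes. The order of levels was looser in embryos. In control embryos Dppa3 was 10.3 times the level of Dnmt1, and every neighbouring pair from Dnmt1 down to Tet2 overlapped. The Dnmt3l to Dnmt3a ratio, 1.19 to 1.27 in control FGOs, ran from 0.58 to 4.43 in control and from 0.43 to 4.36 in K36M oocyte-derived embryos.

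**Figure D4:**
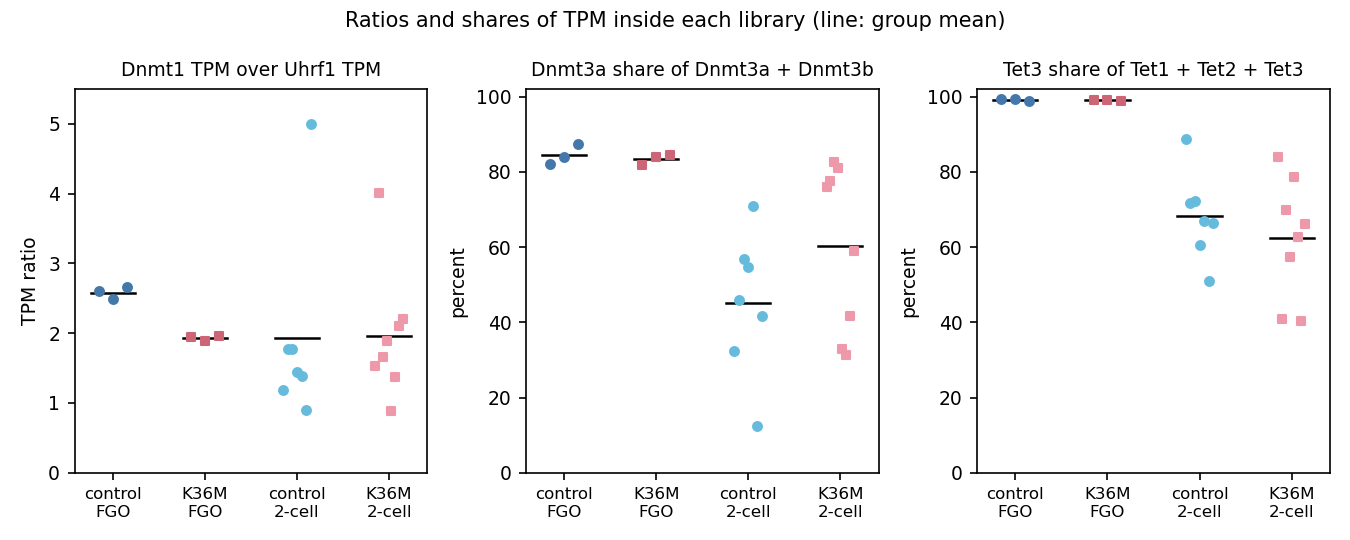
Ratio of Dnmt1 TPM to Uhrf1 TPM, share of Dnmt3a in the summed TPM of Dnmt3a and Dnmt3b (percent), and share of Tet3 in that of Tet1, Tet2 and Tet3 (percent), with 1 point per library and a line at the group mean. The Dnmt1 to Uhrf1 ratio separated K36M from control FGOs (1.89 to 1.95 against 2.50 to 2.66), and single embryos spread widely in all 3 measures.

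Of a list of 45 further genes of the pathway (companions of maintenance methylation, readers of methylated DNA, partners of TET enzymes, base excision repair, the supply of methyl donors and of the TET cofactor oxoglutarate, and the RNA methyltransferase gene Trdmt1), 41 were tested in FGOs and 42 in two-cell embryos. No gene of the list passed in either comparison with limma, and at an unadjusted p under 0.05 there were 4 of 41 and 5 of 42 genes, near the 10.5% and 7.71% of all genes tested. For the list, the median log2 fold change was 0.01 in FGOs and -0.27 in two-cell embryos, beside 0.01 and -0.26 over all genes. The 2 smallest p in FGOs belonged to Nlrp14, an oocyte gene of the NLRP family (2922 ± 82.6 in control and 2321 ± 350 in K36M FGOs, log2 fold change -0.34, SE 0.10, adjusted p = 0.365 with limma), and to Mat2a, which makes the methyl donor S-adenosylmethionine (52.6 ± 4.68 and 79.6 ± 20.4, log2 fold change 0.56, SE 0.17, adjusted p = 0.391). Without K36M replicate 1 Nlrp14 passed, as Dnmt1 did (adjusted p = 0.0212 with limma). In two-cell embryos they belonged to Mat2b, the regulatory subunit of that enzyme (464 ± 140 in control and 251 ± 125 in K36M oocyte-derived embryos, log2 fold change -1.03, SE 0.34, adjusted p = 0.539 with limma), and to Uhrf2, a paralog of Uhrf1 (25.9 ± 14.8 and 10.8 ± 16.4, log2 fold change -1.91, SE 0.76, adjusted p = 0.578).

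Between the stages, 16 of 43 listed genes passed in control material, 6 higher and 10 lower in embryos, and 13 of 43 in K36M material, 3 higher and 10 lower. Over all genes tested the shares were 30.5% in control (15% higher and 15.5% lower) and 25.3% in K36M material (9.86% higher and 15.4% lower). Gadd45b and Gadd45a, stress-response genes that have been linked to demethylation through repair, had the smallest adjusted p of the listed genes that rose in control material, Gadd45b going from 7.37 ± 1.06 to 433 ± 161 and Gadd45a from 12.3 ± 2.88 to 212 ± 67.7 (log2 fold changes 5.60 and 3.97, adjusted p = 4.0e-07 and 1.9e-06 with limma). In K36M material their log2 fold changes were 4.66 and 3.89 (adjusted p = 0.0129 and 0.00208 with limma), and Gadd45b missed the threshold without K36M FGO replicate 2 (log2 fold change 3.68, adjusted p = 0.104). Nlrp14 fell in both, with log2 fold changes of -3.59 and -3.58 (adjusted p = 1.3e-06 and 3.3e-07 with limma). The DNA glycosylase gene Neil2 fell in both, with log2 fold changes of -3.03 in control (adjusted p = 0.0087 with limma, and 0.0562 without control FGO replicate 3) and -3.59 in K36M material (adjusted p = 0.00128). The DNA ligase gene Lig1 fell in both, with log2 fold changes of -3.21 in control (adjusted p = 0.00174 with limma) and -3.11 in K36M material, where it lay just inside the threshold (adjusted p = 0.04997). There it was lost without FGO replicate 1, 2 or 3 (adjusted p = 0.156, 0.160 and 0.161 with limma), with a pseudocount of 0.1 (0.0851), without the trend (0.0562) and with all genes above 0 (0.0709). Idh1, which makes oxoglutarate, also fell in both, with log2 fold changes of -3.02 (adjusted p = 0.0223 with limma) and -5.03 (adjusted p = 0.0011). In control material that call was lost without FGO replicate 1, 2 or 3 (adjusted p = 0.0826, 0.0768 and 0.110 with limma) and with a pseudocount of 0.1 (0.0726). The median log2 fold change of the list was -0.45 in control and -0.76 in K36M material, beside 0.08 and -0.16 over all genes tested. No listed gene passed the interaction or had an unadjusted p under 0.05 in it, and Hells (interaction 0.72) and Mat2b (-1.06), each with an adjusted p of 1.00 with limma, came first by p.

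Across the 21 libraries, the genes whose log2(TPM + 1) ran most like that of 5 members, 1 for each role, were found among 17358 genes. The libraries fall into stages, so these correlations mostly restate the stage difference and are descriptions. For Dnmt1 they were 2210404E10Rik, Gm46120 and Olfr716 (Pearson r of 0.984, 0.983 and 0.982), all with a mean TPM under 0.1 in both groups of embryos. For Tet3 they were Dera, Clec2f and Zp2 (0.979, 0.978 and 0.977), the last a gene of the egg coat. For Dppa3 they were Ehf, Ggt1 and Ndufa8 (0.910, 0.897 and 0.894), for Dnmt3a Slc9a3, Secisbp2l and Golm1 (0.912, 0.908 and 0.902), and for Dnmt3l Ybx3, Ybx2 and Lrrc49 (0.896, 0.887 and 0.877), where Ybx2 encodes an RNA-binding protein of germ cells.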

How the data were processed

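RNA-seq libraries were prepared with a SMART-Seq stranded kit from pooled FGOs or single late two-cell embryos. Per the study's methods, the authors trimmed Read 2 with Trim Galore!, mapped with Hisat2, removed ribosomal RNA reads with BEDTools, and counted with featureCounts. The authors deposited TPM values for 22 libraries and 26214 genes, and each library sums to 1000000. The genome is mm10. The gene annotation, gene lengths and strand setting are not given in the sources used here, so genes that overlap on either strand are uncertain. TPM keeps no depth, so no counting interval is given. Libraries were grouped by their labels, which do not say whether replicates came from separate females, so p-values measure the spread between these libraries, which may be partly technical.

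The limma package 3.58.1 (R 4.3.3) was used to fit log2(TPM + 1), with eBayes and its trend option, for every gene whose TPM averaged 1 or more in a comparison. P-values were adjusted over all these genes by Benjamini-Hochberg, and the threshold was 0.05. A fold change on this scale understates changes of low genes. The count test of the study needs read counts, so limma took its place. Single members were also compared by two-sided exact permutation of the libraries (40 tests, unadjusted). Ratios inside a library were described without a test. Sequences and positions came from RefSeq for GRCm38.p6, and 9 of 10 members had a promoter window. Exon stretches were searched in Python 3.11.15.

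All 10 members were named. Of the 45 related genes, up to 3 per comparison and direction with the smallest adjusted p under 0.05 were named, or, where none passed, the 2 with the smallest p. A gene that this rule picks is not reported here. For Dnmt1, Dnmt3a, Dnmt3l, Dppa3 and Tet3 the 3 genes with the highest Pearson correlation over 21 libraries were named. The members and lists were chosen with earlier results of these data known. As alternatives, the pseudocount was set to 0.1, the minimum mean TPM was dropped or raised to 5, values were scaled by quantiles or by median-of-ratios, the trend was turned off, libraries were weighted (array weights) or blocked by replicate number, single FGO libraries were left out in turn, and control two-cell replicate 4 was added. Ratios were also taken as medians and with that embryo. ChIP-seq, CUT&RUN and bisulfite libraries were not analysed here.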

Additional observations from a re-analysis of the deposited data

Results flagged for a closer look

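Among 7 control and 8 K36M oocyte-derived embryos, each of the 10 genes was examined for an embryo that lay far from the others on the log2(TPM + 1) scale by Dixon's ratio, 20 examinations of which chance marks about 1 in 20. Control replicate 1 had the lowest Tet1 TPM, 11.7, apart from the other 6 control embryos (29.6 to 55.9), and the highest Tet3 TPM, 199.9. K36M oocyte-derived replicate 7 had the highest Tdg TPM, 0.22, where 6 of 8 embryos were listed at 0. The rate given for chance assumes normally distributed values, so it does not hold for Tdg.

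Control two-cell replicate 4, which entered no comparison, lay above the other 7 control embryos in Uhrf1 (223 against 32.6 to 187) and in Tet1 (65.0 against 11.7 to 55.9). It lay below them in Dnmt3b (0.70 against 27.3 to 92.6) and in Dppa3 (689 against 1321 to 2083), and within their range in the other 6 genes.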

How the results depend on the processing

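TPM keeps no depth, so how far read numbers limit the low members (Tdg, Tet1 and Tet2 in FGOs) is unknown. The number of members called was 0 between the genotypes in two-cell embryos and for the interaction under every alternative. In FGOs it was 0 to 1 with 1 library left out, the 1 being Dnmt1 without K36M replicate 1, and 0 under the other alternatives. It ran from 5 to 9 of 9 between the stages in control and from 3 to 7 in K36M material. With 1 FGO library left out, it was 5 in control and 4 to 5 in K36M material. The number of all genes called in FGOs went from 1 to 0 with a pseudocount of 0.1, with all genes above 0, without the trend and with the replicate block, and it was 0 to 300 with 1 library left out. In two-cell embryos it was 5 without the trend and 1 with array weights. In control material it was 9396 with array weights and 3015 to 3056 without 1 FGO library, against 5159. In K36M material it was 8212 with array weights, 2385 with the replicate block and 2342 to 2382 without 1 FGO library, against 4217. The interaction gave 13 with all genes above 0, 1 without the trend, 3 with array weights and 0 to 3 without 1 FGO library. The causes were not tested.

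Same-numbered libraries did not deviate together (r of 0.03, 0.01 and 0.10 for the 3 FGO pairs), so the numbers do not pair the samples. With the replicate number as a block, 3 of 9 members were called between the stages in K36M material, where Dppa3 (adjusted p = 0.105 with limma) and Tet1 (0.0672) were lost, 7 in control material, and 0 in the other comparisons. Of the related genes named, the block also lost Neil2 (adjusted p = 0.110 with limma) and Idh1 (0.152) in control and Idh1 (0.101) and Lig1 (0.216) in K36M material.

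Signs changed only for members that had not passed. In FGOs Dnmt3a changed with quantile normalization (-0.0058), and with 1 library left out the values were -0.013 to 0.099 for Dnmt3a, -0.00067 to 0.17 for Dppa3 and -0.041 to 0.31 for Tet1, which also changed with array weights (-0.012). In two-cell embryos Dnmt3l changed with array weights (0.10), median-of-ratios scaling (0.063), quantile normalization (0.091) and the block (0.049), Dppa3 (-0.064) and Tet2 (0.041) with quantile normalization, and Tet1 with control replicate 4 (-0.085) and the block (-0.0062). Between the stages Dnmt3b changed in K36M material with the block (-0.61). In the interaction Dnmt3a changed with the block (-0.030), Dppa3 with quantile normalization (-0.21), and Tet1 with array weights (0.092), median-of-ratios scaling (0.078) and quantile normalization (0.15). With 1 FGO library left out the interaction ran from -0.052 to 0.12 for Dppa3 and from -0.26 to 0.089 for Tet1. The ratios and shares moved by less than 1 SD with the median over libraries and with control replicate 4. The share of the library in the 10 genes, whose alternatives were chosen after seeing the data, did so too.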
